A study of Mus musculus with 12 samples.

Results

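Genes of the photoreceptor connecting cilium, and of the system that carries lipid-modified proteins through it, were followed across control and *Otx2* CKO retinas. They were *Unc119*, *Arl3*, *Rp2*, *Rpgrip1*, *Rpgr*, *Spata7*, *Cep290*, *Lca5* and *Mak*, and their members on the array are all probe sets annotated with one of these symbols and no other. This gave 18 of the 45101 probe sets, for 9 of the 18194 genes that a probe set with 1 symbol represents: 5 for *Rp2*, 4 for *Rpgrip1*, 2 each for *Lca5* and *Mak*, and 1 each for the others. Each of the 12 arrays measured RNA of the whole retina on an Affymetrix Mouse Genome 430 2.0 GeneChip, with 3 arrays in each of 4 groups, and the number of arrays limits the precision.

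All animals were homozygous for a floxed *Otx2* allele. The control (otx2 flox/flox; Crx-Cre-) lacked Cre, and the *Otx2* CKO (otx2 flox/flox; Crx-Cre+) carried Cre under the *Crx* promoter, which is active in developing photoreceptors, and the RNA came from the whole retina and not from sorted photoreceptors. Both genotypes were taken at postnatal day 1 (P1) and P12. The labels do not say how many animals gave each RNA or whether the replicates were separate litters, so p-values measure the spread between these samples. The targeted gene separated the genotypes at each age: its signal was 283 to 376 in controls against 108 to 154 with *Otx2* CKO at P1, and 803 to 1058 against 108 to 245 at P12. The free text of several samples disagrees with their genotype field, and groups follow titles and genotype fields. The arrays were not brought to a common level before deposition. The 2% trimmed mean signal was 21.8 to 30.1 at P1 and 96.4 to 172 at P12, highest on the *Otx2* CKO replicate 1 array, and the log2 changes of all probe sets tested at P12 had a median of 0.39 as deposited and 0.08 after quantile normalization.

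The connecting cilium is the narrow bridge between the inner segment of a rod or cone, where proteins are made, and the outer segment, where light is detected, and it corresponds to the transition zone of other cilia. RPGRIP1 anchors RPGR there, SPATA7 and CEP290 are further parts of this zone, lebercilin (LCA5) acts in transport along the cilium and MAK is a kinase that restrains its length. Proteins with a myristoyl or prenyl anchor travel differently: UNC119 covers the myristoyl group of cargo such as transducin alpha, the small GTPase ARL3 in its GTP form releases the cargo inside the cilium, and RP2 switches ARL3 off by stimulating its GTPase activity. Inherited defects in these genes cause retinal dystrophy in people.

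Sequence is shown for the 3 genes called lower in the *Otx2* CKO retina at P12 as deposited, and for *Arl3*. *Arl3* was not called as deposited but was called lower after quantile normalization (adjusted p = 0.0122, limma). The start sites are those of the promoter set used. The sequence is shown because OTX2 and its relative CRX are homeodomain proteins that recognize TAATCC. Each line gives the 250 bases before a start site in RefSeq (build GRCm38.p6), 5′ to 3′ in the direction of the gene, with TAATC on either strand in capitals (on the opposite strand it reads GATTA).
Unc119 start site 1, chr11:78343245-78343494, plus strand: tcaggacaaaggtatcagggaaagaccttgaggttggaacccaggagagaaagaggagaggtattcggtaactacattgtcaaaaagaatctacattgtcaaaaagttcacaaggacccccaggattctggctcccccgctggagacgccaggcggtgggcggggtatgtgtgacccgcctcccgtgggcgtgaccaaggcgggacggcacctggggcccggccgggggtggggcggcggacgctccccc
Unc119 start site 2, chr11:78345334-78345583, plus strand: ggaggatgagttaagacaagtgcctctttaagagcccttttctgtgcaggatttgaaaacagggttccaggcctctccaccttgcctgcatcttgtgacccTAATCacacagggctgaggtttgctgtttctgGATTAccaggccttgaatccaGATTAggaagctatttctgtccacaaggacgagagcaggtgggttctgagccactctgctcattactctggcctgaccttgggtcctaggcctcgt
Unc119 start site 3, chr11:78346460-78346709, plus strand: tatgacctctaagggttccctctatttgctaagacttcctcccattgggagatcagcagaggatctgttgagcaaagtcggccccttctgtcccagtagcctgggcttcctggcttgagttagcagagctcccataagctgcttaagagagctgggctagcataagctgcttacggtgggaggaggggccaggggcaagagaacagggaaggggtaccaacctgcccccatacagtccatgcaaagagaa
Rpgrip1, chr14:52110653-52110902, plus strand: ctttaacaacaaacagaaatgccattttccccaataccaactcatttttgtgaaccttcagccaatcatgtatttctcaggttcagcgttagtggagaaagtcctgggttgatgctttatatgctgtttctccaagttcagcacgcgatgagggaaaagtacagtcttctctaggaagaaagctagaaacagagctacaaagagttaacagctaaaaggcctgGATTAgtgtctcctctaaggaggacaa
Mak start site 1, chr13:41079707-41079956, minus strand: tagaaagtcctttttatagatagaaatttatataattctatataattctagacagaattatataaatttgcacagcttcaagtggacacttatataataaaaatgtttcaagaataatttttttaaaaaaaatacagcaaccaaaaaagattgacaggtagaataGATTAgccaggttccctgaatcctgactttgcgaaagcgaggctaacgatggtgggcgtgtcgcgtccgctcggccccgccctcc
Mak start site 2, chr13:41070466-41070715, minus strand: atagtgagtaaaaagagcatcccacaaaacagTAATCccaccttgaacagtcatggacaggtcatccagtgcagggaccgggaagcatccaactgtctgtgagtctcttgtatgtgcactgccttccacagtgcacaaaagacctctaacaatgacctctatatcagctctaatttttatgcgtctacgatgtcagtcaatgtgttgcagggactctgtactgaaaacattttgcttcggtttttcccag
Arl3, chr19:46573183-46573432, minus strand: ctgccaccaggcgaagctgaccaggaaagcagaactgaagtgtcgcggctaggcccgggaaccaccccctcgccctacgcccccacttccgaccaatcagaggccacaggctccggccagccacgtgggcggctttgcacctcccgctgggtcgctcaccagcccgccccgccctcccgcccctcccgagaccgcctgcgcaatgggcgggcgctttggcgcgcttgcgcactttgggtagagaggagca

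TAATC stood in 4 of the 14 windows of the 9 genes, and these belonged to *Unc119*, *Rpgrip1* and *Mak*. The longer TAATCC, which contains TAATC, was in 3 of the 14. It lay 118 bases before *Unc119* start site 2 and 28 bases before the *Rpgrip1* start site, both on the opposite strand, and 218 bases before *Mak* start site 2. All of these windows lie inside the span of their gene (chr11:78343495-78349164, chr14:52104241-52161339 and chr13:41025007-41079706). For *Rpgrip1* no window precedes the first base of that span. Of 32851 windows of the same length in the genome-wide table, 19.8% held TAATC and 6.25% TAATCC on either strand. The match is a description of the letters, and binding was not measured in these data.

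The plot of the leading probe sets, the brightest of each gene on average, shows the level on every array.

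**Figure D1:**
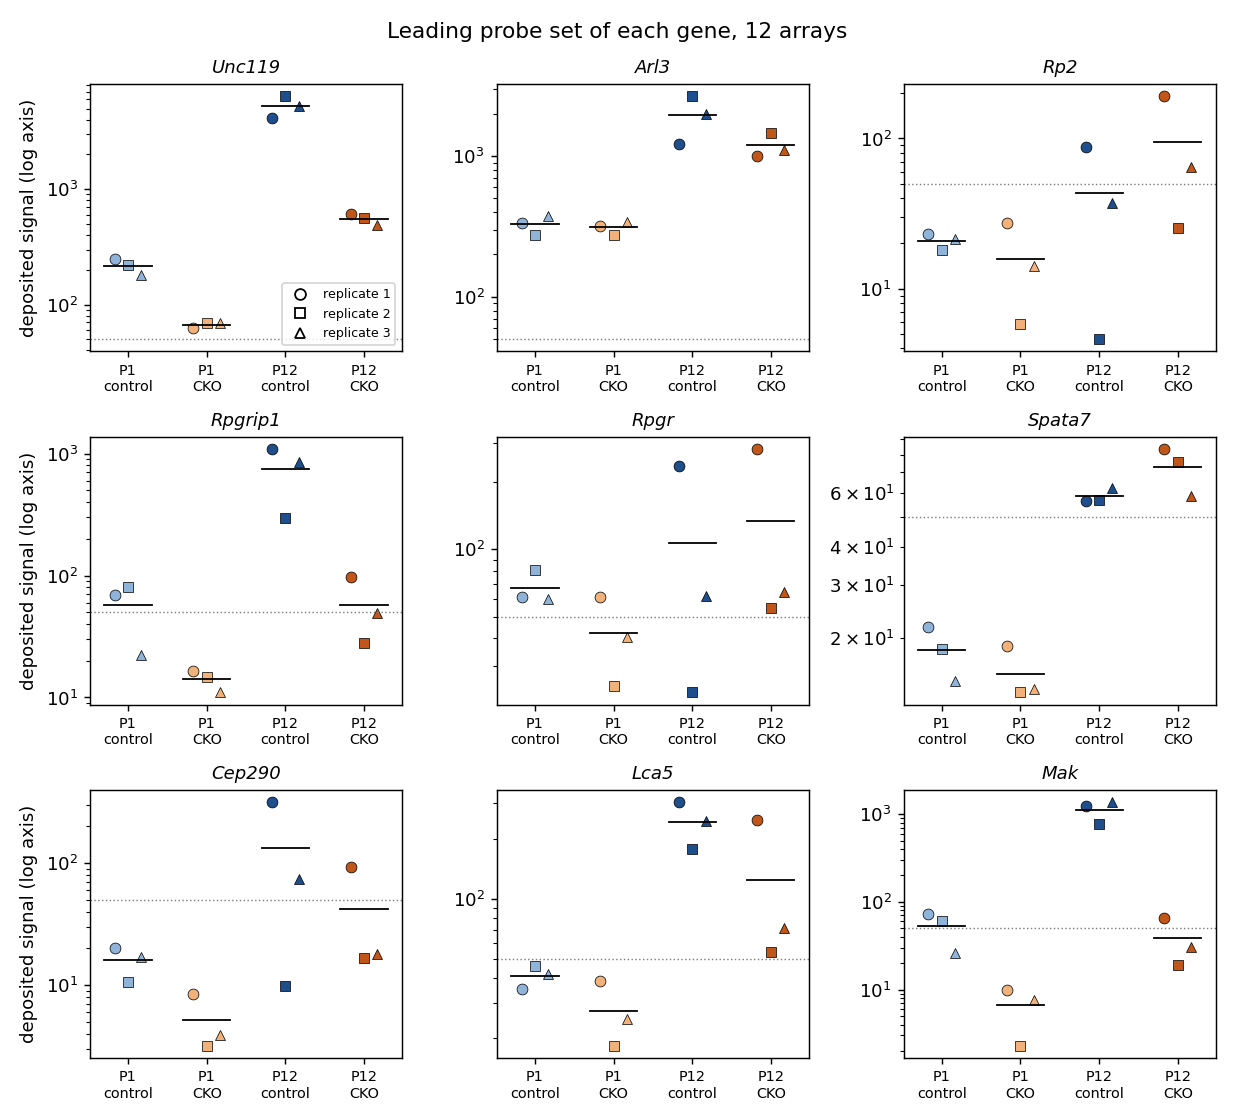
Deposited signal (log axis) of the leading probe set of each of the 9 genes on the 12 arrays, by group. Circles, squares and triangles are replicates 1, 2 and 3, the black line is the group mean, and the dotted line marks a signal of 50, the limit for testing. In *Unc119*, *Rpgrip1* and *Mak* every P12 *Otx2* CKO array lies below every P12 control array, whereas the P12 arrays of *Rp2*, *Rpgr* and *Cep290* spread widely within each genotype.

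*Unc119* was called lower at both ages in the fit without a replicate block. With the replicate number as a block within each age, the leading probe sets of *Mak* and *Rpgrip1* were called lower at P1 as well (limma adjusted p = 4.67e-08 and 0.000225). This block was added after the data were seen, and its fit as deposited had an infinite prior df, which makes p-values very small. After quantile normalization with the block, *Mak* kept the call (adjusted p = 0.00462, limma) and *Rpgrip1* did not (adjusted p = 0.106). At P1 the *Unc119* signal was 247, 219 and 180 on the control arrays and 62.1, 69.6 and 69.2 on the *Otx2* CKO arrays, which did not overlap. At P12 it was 4144, 6454 and 5281 in controls against 609, 560 and 489 with *Otx2* CKO. The control mean was 3.22 times that of the *Otx2* CKO at P1 and 9.58 times at P12. On the scale of log2(signal + 16), the change was −1.47 (SE 0.21, adjusted p = 0.00997, limma) at P1 and −3.21 (SE 0.21, adjusted p = 1.02e-06, limma) at P12. At P1 the call was lost when any 1 of 5 arrays was left out: the adjusted p from limma was 0.118 without P1 control replicate 1 and 0.0949 without P1 control replicate 2, and 0.0678, 0.0653 and 0.0726 without P1 *Otx2* CKO replicate 1, 2 or 3. It was also lost with median scaling (adjusted p = 0.556) and with scaling to the hybridization spikes (adjusted p = 0.0509), or with an offset of 50 in place of 16 (adjusted p = 0.0919).

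*Arl3*, the switch that unloads UNC119, had overlapping levels in both genotypes at P1. The signals were 333, 274 and 374 in controls against 320, 274 and 342 with *Otx2* CKO, a log2 change of −0.06 with a 95% interval from −0.65 to 0.53. The sign of this value turned with quantile normalization (0.14, 95% interval −0.34 to 0.63). At P12 the signals were 1226, 2680 and 2006 in controls against 999, 1465 and 1111 with *Otx2* CKO, so that 1 control array lay within the *Otx2* CKO range. The *Otx2* CKO array was the lower one at each of the 3 replicate numbers. The log2 change was −0.67 (SE 0.27, adjusted p = 0.107, limma) as deposited, and *Arl3* passed the test after quantile normalization (−0.96, adjusted p = 0.0122, limma) and with the replicate number as a block within each age (adjusted p = 0.0334 as deposited and 9.2e-05 after quantile normalization). Without P12 control replicate 1 it passed as deposited too (−0.97, adjusted p = 0.0141, limma).

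*Rp2*, the GTPase-activating protein of ARL3, was dim on all of its probe sets. The leading probe set gave 23.0, 18.2 and 21.3 in controls against 27.4, 5.8 and 14.1 with *Otx2* CKO at P1, under the limit of 50, so that it was not tested there. At P12 it gave 88.3, 4.6 and 37.4 in controls against 192, 25.4 and 65.0 with *Otx2* CKO, ranges that overlapped. Replicate 1 was the highest and replicate 2 the lowest in both genotypes. The log2 change was 0.87 (95% interval −0.41 to 2.15, adjusted p = 0.314, limma), and a further probe set gave 0.82 (adjusted p = 0.323). With the replicate number as a block within each age both were called higher as deposited (adjusted p = 0.000405 and 0.000667), but not after quantile normalization with the same block (adjusted p = 0.0597 and 0.0613). The remaining 3 *Rp2* probe sets stayed under a group mean of 50 in all 4 groups, with the brightest group means between 21.7 and 33.9.

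*Rpgrip1*, which encodes the anchor of RPGR in the connecting cilium, fell at P12 on all 4 of its probe sets. The leading probe set gave 1091, 297 and 849 in the P12 control and 96.6, 28.1 and 48.9 in the P12 *Otx2* CKO retina. The other 3 gave control signals of 58.0 to 892 and *Otx2* CKO signals of 1.3 to 29.6, and no probe set had overlapping groups. Their log2 changes were −3.29 (SE 0.48) for the leading probe set and −4.59, −3.59 and −2.64 for the others, with limma adjusted p of 0.000622, 7.56e-06, 0.000302 and 8.28e-05. With P12 *Otx2* CKO means under 50, the other 3 entered the test only through the P12 control. At P1 the leading probe set gave 69.8, 79.9 and 22.3 in controls against 16.5, 14.7 and 11.0 with *Otx2* CKO. The P1 groups did not overlap either, but the change of −1.18 (SE 0.48) did not pass (adjusted p = 0.910, limma). With the block within each age the same change had an adjusted p of 0.000225, and after quantile normalization with this block 0.106. The other 3 probe sets were under the limit at P1.

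*Mak* showed the largest P12 change among the leading probe sets. Its leading probe set gave 1233, 771 and 1371 in controls against 65.5, 19.2 and 30.3 with *Otx2* CKO. The other probe set gave 481, 267 and 541 against 33.7, 3.8 and 4.2. The 2 probe sets followed each other closely, with a Pearson r of 0.99 over the 12 arrays, and in neither did the genotypes overlap. The log2 changes were −4.44 (SE 0.36, adjusted p = 4.74e-06, limma) and −3.98 (SE 0.37, adjusted p = 1.46e-05). The P12 *Otx2* CKO means of 38.3 and 13.9 were under 50, so these 2 probe sets entered the test only through the P12 control. At P1 the leading probe set gave 72.9, 60.4 and 25.9 in controls against 9.9, 2.3 and 7.6 with *Otx2* CKO, again apart, with a log2 change of −1.56 (SE 0.36, adjusted p = 0.270, limma). It passed with the replicate number as a block within each age (adjusted p = 4.67e-08 as deposited, 0.00462 with quantile normalization) and with median scaling (adjusted p = 0.0155).

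**Figure D2:**
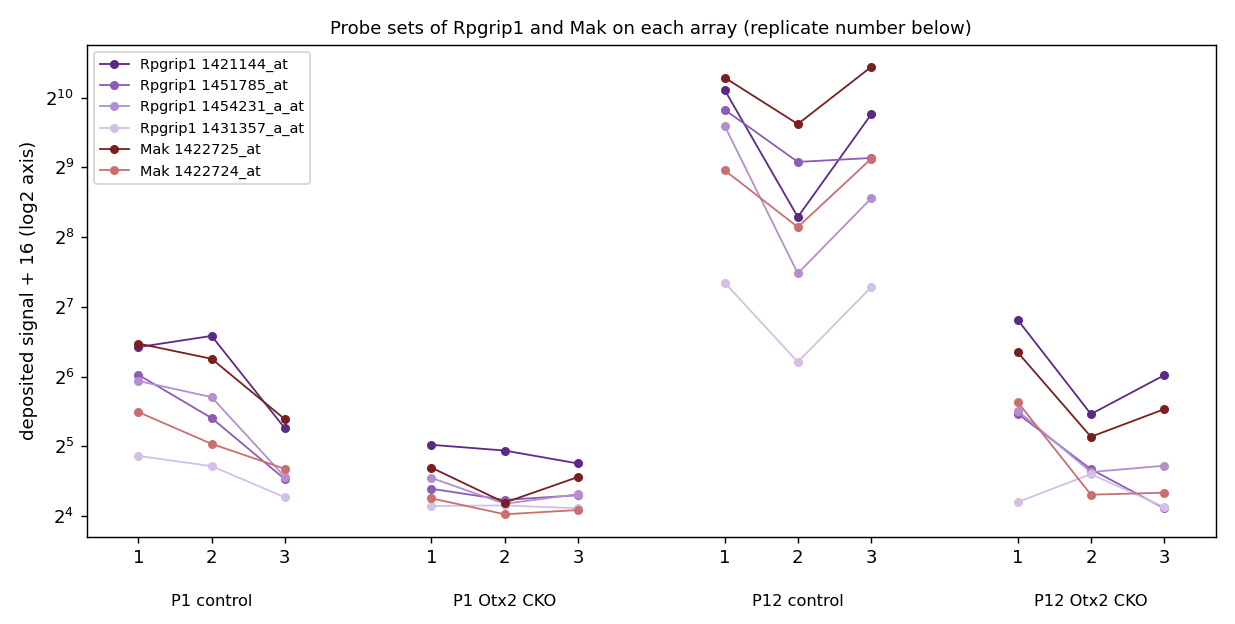
Deposited signal plus 16 (log2 axis) of the 4 *Rpgrip1* and 2 *Mak* probe sets on the 12 arrays, with the replicate number below each point; lines only help to follow a probe set within a group. All 6 probe sets are highest in the P12 control, and P12 control replicate 2 is the lowest of that group in all 6.

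Probe sets of the same gene followed each other to different degrees. The 4 *Rpgrip1* probe sets correlated with one another at r of 0.96 to 0.99 over the 12 arrays, and the 5 dim *Rp2* probe sets at 0.49 to 0.93. The 2 *Lca5* probe sets correlated at 0.47, and the dimmer one never exceeded a group mean of 20.2. These correlations describe arrays that share 4 groups and a common level per array.

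*Rpgr*, whose product RPGRIP1 anchors, did not pass the test at either age. Its signals at P1 were 61.1, 81.2 and 60.2 in controls against 61.4, 24.4 and 40.6 with *Otx2* CKO, a log2 change of −0.56 (95% interval −1.92 to 0.80, adjusted p = 0.910, limma). At P12 they were 236, 22.9 and 61.7 in controls against 281, 54.4 and 64.5 with *Otx2* CKO. Both genotypes had a single bright array, replicate 1, and the ranges overlapped. The P12 change was 0.38 (95% interval −0.98 to 1.74, adjusted p = 0.683, limma) as deposited and 0.00 (95% interval −1.12 to 1.11) after quantile normalization, and its sign was the opposite without P12 control replicate 2 (−0.23) or without P12 *Otx2* CKO replicate 1 (−0.28).

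*Spata7*, whose product binds RPGRIP1, was tested at P12 only. It gave 56.6, 56.9 and 62.1 in controls against 83.6, 76.0 and 58.7 with *Otx2* CKO, close to the limit of 50. The log2 change was 0.24 (95% interval −0.18 to 0.67, adjusted p = 0.397, limma), and −0.03 (95% interval −0.48 to 0.41) after quantile normalization. At P1 it gave 14.5 to 21.8 in controls against 13.3 to 18.9 with *Otx2* CKO.

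*Cep290* encodes a large protein that ties the ciliary microtubules to the membrane. Its P12 signals were 316, 9.8 and 74.6 in controls against 92.7, 16.7 and 17.9 with *Otx2* CKO. The control arrays alone spanned more than the whole *Otx2* CKO range. The log2 change of −0.90 (95% interval −2.43 to 0.64) did not pass (adjusted p = 0.385, limma). It passed with the block within each age (adjusted p = 0.000213, or 0.0266 after quantile normalization) and without P12 control replicate 2 (−1.81, adjusted p = 0.0356, limma). At P1 the signals were 20.3, 10.6 and 17.0 against 8.4, 3.2 and 3.9, apart but under the limit.

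*Lca5*, for lebercilin, had P12 signals of 305, 178 and 245 in controls against 248, 54.0 and 71.5 with *Otx2* CKO. *Otx2* CKO replicate 1, the array with the highest trimmed mean, lay within the control range, and the other 2 lay below it. The log2 change was −1.11 (SE 0.41, adjusted p = 0.0785, limma). It passed after quantile normalization (−1.38, adjusted p = 0.00676, limma), with the block within each age (adjusted p = 2.96e-05, and 0.000113 with quantile normalization) and without that array (−1.69, adjusted p = 0.00128, limma). At P1 it gave 35.3, 45.9 and 41.8 against 38.8, 18.4 and 24.9 and was not tested.

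Counted over all members at P1, 5 of 18 probe sets passed the signal limit, 1 fell and 0 rose. Of all 8384 probe sets tested at P1, 0.179% were called lower and 0% higher (0.25% and 0% after quantile normalization, where again 1 member was called). The P1 arrays of the genotypes were apart, *Otx2* CKO lower, in 22% of all probe sets tested and apart the other way in 0.358%. With the block within each age, 3 of the 5 were called lower, where 0.942% of all probe sets tested were called lower and 0.0477% higher. With quantile normalization and this block it was 2 of 5, against 0.68% and 0.119%. At P12, 14 of 18 probe sets passed the limit, 7 fell and 0 rose, against 4.54% lower and 14.2% higher among the 21390 probe sets tested. Arrays of the genotypes were apart in 5.41% of these with *Otx2* CKO lower and in 20.8% with it higher. The 7 belong to 3 of the 9 genes, *Unc119*, *Rpgrip1* and *Mak*. In the P12 *Otx2* CKO retina the 2 *Mak* probe sets had means of 38.3 and 13.9. The *Rpgrip1* probe sets other than the leading one had means of 4.07 to 16.3 there. All of these were under 50 and entered the test only through the P12 control, so that a lower value was largely built in. *Unc119* and the leading *Rpgrip1* probe set, with means of 552 and 57.9, were above the limit in both genotypes. After quantile normalization 9 were called lower, adding *Arl3* and *Lca5*, with a background of 7.08% lower and 6.77% higher. With the block within each age, 10 were called lower, adding *Cep290*, and 2 higher, both of *Rp2*, where 7.26% of all probe sets tested were called lower and 36.3% higher. After quantile normalization with this block 10 were lower and 0 higher, where 14.1% of all probe sets tested were called lower and 19.4% higher. Probe sets that passed the limit through one bright group had to differ, and the dim probe sets were not tested.

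**Figure D3:**
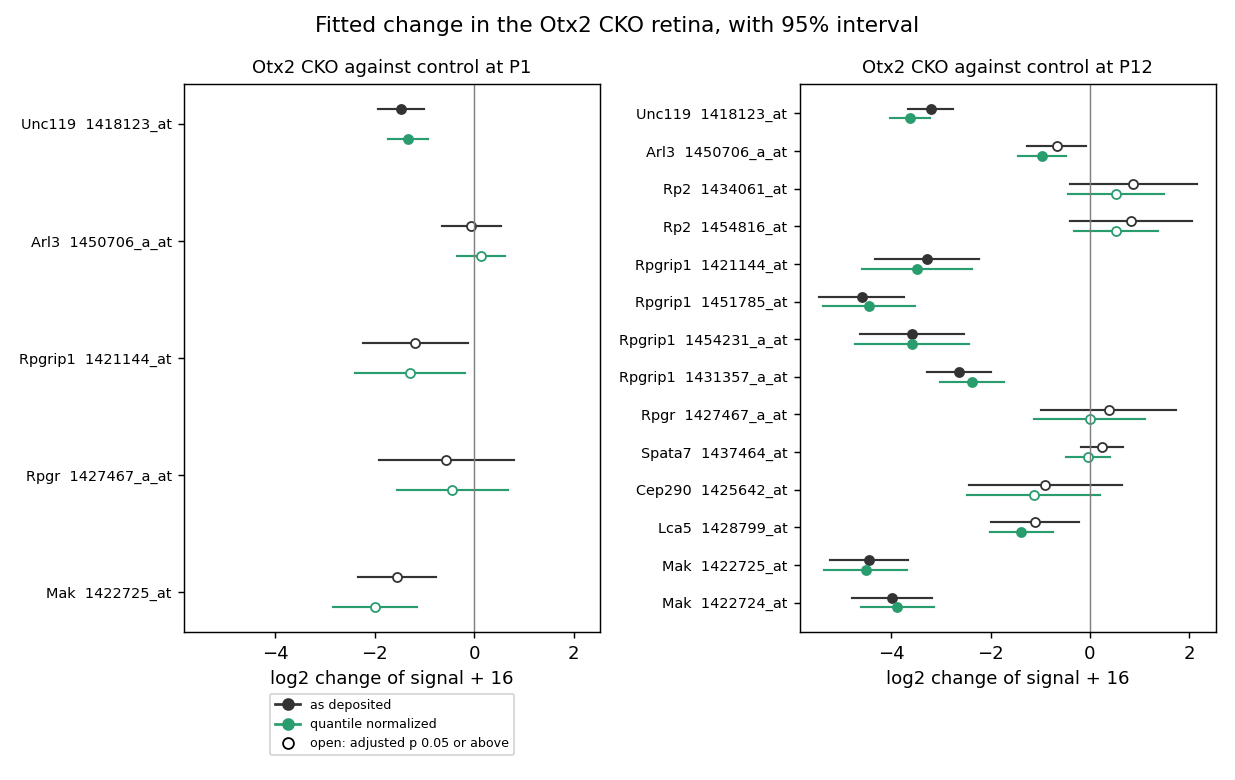
Fitted log2 change of signal plus 16 in the *Otx2* CKO against the control retina for every tested probe set of the 9 genes, at P1 (left) and P12 (right). Bars are 95% intervals, black as deposited and green after quantile normalization, and filled points have an adjusted p under 0.05. *Unc119*, *Rpgrip1* and *Mak* lie between −4.59 and −2.64 at P12 as deposited, and *Rp2*, *Rpgr*, *Spata7* and *Cep290* have intervals that include 0.

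The comparison of the genotype change at P12 with that at P1 asks whether the loss grew as photoreceptors matured. For 5 of 14 tested probe sets the P12 change was more negative, and for 0 it was more positive, against 1.79% and 3.08% of all 21530 probe sets tested. *Unc119* had a difference of −1.73 (SE 0.30, adjusted p = 0.00549, limma). Both *Mak* probe sets (−2.89 and −3.04, adjusted p = 0.00677 and 0.00555) and 2 of the *Rpgrip1* probe sets (−3.58 and −2.16, adjusted p = 0.00289 and 0.0126) passed as well. Of these 5, 3 were under 50 in both P1 groups and entered the test only through the bright P12 control, so that with the offset of 16 hardly any P1 change could appear and a more negative P12 change was built in. Their P1 means in control and *Otx2* CKO were 18.5 and 1.47 for the dimmer *Mak* probe set, and 27.6 and 3.83, and 8.90 and 1.60, for the 2 *Rpgrip1* probe sets. The leading *Mak* and *Rpgrip1* probe sets were close to background in the P1 *Otx2* CKO retina too, with means of 6.60 ± 3.90 and 14.1 ± 2.80 (SD, n = 3 each), which limits how far they could fall at P1. With an offset of 1 in place of 16, 1 probe set, that of *Unc119*, was called (adjusted p = 0.023, limma), against 0.804% lower and 1.59% higher over all. The *Mak* differences then had adjusted p of 0.145 and 0.19, and the *Rpgrip1* differences 0.0848 and 0.0988. The *Rpgrip1* difference of −2.16 also lost its call after quantile normalization (−1.55, adjusted p = 0.0623), with median or trimmed mean scaling (adjusted p = 0.104 and 0.122) and without P1 control replicate 3 (adjusted p = 0.0521). The other 4 were called after quantile normalization, where 2.75% of all probe sets tested were more negative and 1.04% more positive. With the block within each age all 4 *Rpgrip1* probe sets were called more negative, and *Rpgr* and 2 *Rp2* probe sets more positive (adjusted p = 0.0195, 0.00196 and 0.00213), where 3.99% of all probe sets tested were called more negative and 28.9% more positive. None of these 3 was called after quantile normalization with the same block (adjusted p = 0.422, 0.0836 and 0.0555), where 9 probe sets were called more negative, adding *Arl3* (adjusted p = 0.00124) and *Lca5* (0.0147), where 7.63% of all probe sets tested were called more negative and 9% more positive.

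Between P1 and P12 the control retina gained several of these genes. All P12 arrays were brighter overall than all P1 arrays, so this comparison used quantile normalized signals. *Unc119* rose from a normalized signal of 514 ± 89.3 to 3963 ± 176 (SD, n = 3 each), so the change was 2.92 on the log2 scale (SE 0.18, adjusted p = 1.55e-07, limma). Both *Mak* probe sets rose (2.56 and 2.42, adjusted p = 0.000251 and 0.000145), as did the 4 *Rpgrip1* probe sets (1.85, 2.70, 1.87 and 1.35, adjusted p = 0.014, 0.000371, 0.0155 and 0.00338). *Arl3* rose by less (0.80, SE 0.22, adjusted p = 0.0148). The call of *Arl3* was lost without P1 control replicate 2 (adjusted p = 0.0673) or P12 control replicate 3 (0.0576), and 2 *Rpgrip1* calls were lost without P1 control replicate 3 (adjusted p = 0.0704 and 0.0754), one of them also without P12 control replicate 3 (0.0525). *Arl3* was not called with median scaling (0.58, adjusted p = 0.354) or trimmed mean scaling (0.72, adjusted p = 0.0769) either, nor were the same 2 *Rpgrip1* probe sets with the compared groups alone in the fit (adjusted p = 0.054 and 0.0596). In all, 8 of 12 tested probe sets rose and 0 fell, where 20.2% of 18560 probe sets rose and 14.4% fell. The dimmer *Mak* probe set had a deposited P1 control mean of 18.5. The *Rpgrip1* probe sets other than the leading one had 27.6, 29.7 and 8.90. All of these entered the test only through the bright P12 control, so that a rise was largely built in.

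In the *Otx2* CKO retina the same step in age left the normalized levels of most tested members within their spread, while 10 of the 18 probe sets were not tested. *Unc119* rose from 194 ± 34.0 to 309 ± 50.1 (SD, n = 3 each), so the change was 0.63 on the log2 scale (SE 0.18, adjusted p = 0.0265, limma), and was 1 of 8 tested probe sets called, against 13.6% of 20638 probe sets called higher and 8.77% lower. It lost the call without P1 *Otx2* CKO replicate 1 or 3 (adjusted p = 0.096 and 0.0621) and without P12 *Otx2* CKO replicate 2 or 3 (0.0933 and 0.0805). *Mak* had normalized means of 19.1 ± 8.54 at P1 and 19.6 ± 4.25 at P12, and the leading *Rpgrip1* probe set 42.3 ± 10.8 and 29.7 ± 6.94 (SD, n = 3 each). *Mak* was not tested here, because its deposited means of 6.60 and 38.3 were under the limit of 50. As deposited, 10 of 12 member probe sets were called higher at P12 in controls and 7 of 8 with *Otx2* CKO, where 82.7% and 96.2% of all probe sets tested were called higher, 1.49% and 0.62% lower, and their median shift was 1.45 and 1.85. For *Unc119* the order of the groups by normalized mean was P12 control, P1 control, P12 *Otx2* CKO and P1 *Otx2* CKO. *Mak* had the same first 2 groups, and its *Otx2* CKO groups were too dim to be ordered. *Arl3* had its highest normalized mean in the P12 control too (1329 ± 201), and its other 3 groups lay between 698 ± 230 and 835 ± 46.2 (SD, n = 3 each), within their spread of each other.

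The fall of the members was set beside other genes of the same structures. These came from lists of textbook members that were chosen with earlier results of these data known, so the counts describe the lists only. Of 31 genes of the connecting cilium, transition zone and basal body, 24 were tested at P12, and 8 fell and 0 rose, against 4.54% lower and 14.2% higher among all probe sets tested. *Fam161a*, a microtubule-binding protein of the connecting cilium, fell from 457 ± 64.4 to 41.1 ± 14.1 (SD over 3 arrays, log2 change −3.07, adjusted p = 1.55e-06, limma). With the *Otx2* CKO mean under 50, it entered the test only through the P12 control. *Tmem107* (−1.91, adjusted p = 0.00175), *Nphp4* (−1.70, adjusted p = 0.000236) and *Tmem237* (−1.57, adjusted p = 0.000683), all of the transition zone, came next. The median log2 change of the list was −0.40, beside 0.39 over all probe sets tested, and after quantile normalization −0.67 beside 0.08, with 7 lower against 7.08% over all. At P1, 0 of 9 tested genes of this list were called in either direction.

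Genes that attach, carry or trim lipid anchors were called in both directions. Of 16 tested at P12, 3 fell and 1 rose, against the same 4.54% and 14.2%. *Icmt*, which methylates the prenylated end of proteins, fell from 1567 ± 764 to 214 ± 64.1 (SD over 3 arrays, log2 change −2.72, adjusted p = 8.4e-05, limma). *Rab28*, a farnesylated small GTPase of the cilium, fell by 1.32 (adjusted p = 0.00258), and *Pde6d*, the carrier of prenylated proteins that ARL3 also unloads, fell by 0.92 (adjusted p = 0.0339). *Nmt2*, one of the N-myristoyltransferases, rose by 1.17 (adjusted p = 0.0254). *Unc119b*, the paralog of *Unc119*, had signals of 236 ± 25.5 in controls against 274 ± 11.5 with *Otx2* CKO (SD over 3 arrays, log2 change 0.21, adjusted p = 0.453). *Arl2*, the relative of *Arl3* that also binds these carriers, gave 0.26 (adjusted p = 0.499), and neither passed. These 2 were named after their values were seen. The list's median was 0.15 as deposited and −0.14 after quantile normalization, so its sign depended on the scaling. At P1, 0 of 7 tested genes were called.

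Most genes of the lipidated cargo of the photoreceptor cilium fell. Of 8 tested cargo genes at P12, 7 fell (4.54% over all probe sets), led by *Pde6b* (−5.61), *Gnat1* (−4.70), *Gngt1* (−4.50) and *Pde6a* (−4.13), with adjusted p of 6.53e-06, 3.01e-06, 1.42e-06 and 2.85e-06 from limma. *Gnat1* encodes the rod transducin alpha subunit that UNC119 carries, and the PDE6 subunits are prenylated. *Inpp5e*, a farnesylated phosphatase of cilia in general, was the cargo gene that did not pass (0.25, adjusted p = 0.530). *Pde6a*, *Pde6c* and *Grk1* had P12 *Otx2* CKO means of 23.2, 33.9 and 5.07 and entered the test only through the P12 control. The list's median was −3.71. Of 3 kinases related to MAK, *Mok* fell by 1.26 (adjusted p = 0.00357), *Cilk1* rose by 1.31 (adjusted p = 0.0404, but 0.0648 after quantile normalization) and *Cdk20* gave −0.17 (adjusted p = 0.607).

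**Figure D4:**
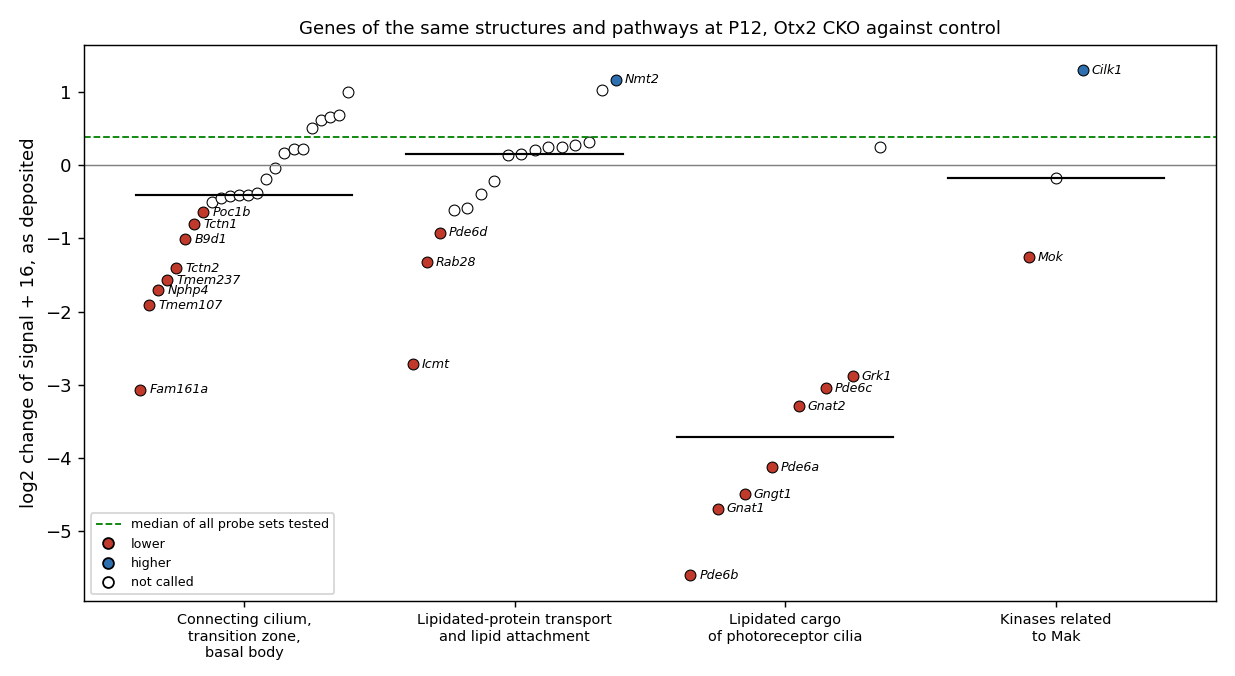
Log2 change of signal plus 16 at P12, *Otx2* CKO against control, as deposited, for each tested gene of 4 lists of related genes (1 probe set a gene). Red points were called lower, blue higher and open ones neither, the black bar is the list median and the dashed line the median of all probe sets tested (0.39). The cargo genes lie lowest, and 8 connecting cilium genes are called lower with 0 higher.

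Levels of cell type markers moved in the same samples. The summed signal of the rod markers *Nrl* and *Sag*, the 2 of 4 listed rod markers analysed here, was 13189 to 16054 in the P12 controls against 565 to 1218 in P12 *Otx2* CKO, that of 4 cone markers 3927 to 7596 and 171 to 354, and that of 3 bipolar markers 2545 to 4899 and 83.4 to 164. At P1 the rod sum was 423 to 569 in controls against 9.2 to 45.0 with *Otx2* CKO. Both rod, all 4 cone and 2 tested bipolar genes were called lower at P12. Of these, *Arr3* and *Cabp5* (P12 *Otx2* CKO means of 20.0 and 19.8) entered the test only through the P12 control. The 2 tested horizontal cell markers were called lower too, the 3 listed summing to 427 to 534 in controls against 179 to 190 with *Otx2* CKO. In the P12 *Otx2* CKO retina 2 of these 3 were under a group mean of 50. The 5 microglia markers were all called higher (436 to 864 in controls against 2300 to 3153 with *Otx2* CKO), where 14.2% of all probe sets tested were higher. Of the amacrine markers 2 of 6 were higher (sums of 3338 to 4825 and 5529 to 8557), and of the Muller glia markers 2 of 4 (4335 to 8389 and 7063 to 11025), 1 of them after quantile normalization. Markers of multiciliated cells, which also build cilia, summed to 56.5 to 176 and 64.8 to 195, with 3 of 4 under a group mean of 50 in each P12 group. In whole-retina RNA, fewer photoreceptors and less RNA per photoreceptor cannot be told apart, and the part of these shifts in the member values was not tested.

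Other genes had profiles across the 12 arrays much like those of the members, as a description of arrays that share groups and scaling. Closest to *Unc119* among 18799 probe sets of other genes were *Lrit1*, *Prcd* and *Ptp4a3* (r of 0.99 each). *Mak* was followed most closely by *Ppef2*, *Epb41l5* and *Ebpl* (0.99, 0.99 and 0.98) and *Rpgrip1* by *Fyco1*, *Tctn1* and *Samd7* (0.98 each). Closest to *Arl3* was *Ift122*, with *Rpa1* and *Rgs20* next (0.94, 0.93 and 0.93). The dim members had other company: *Rp2* ran with *Tardbp*, *Gmfb* and *Tug1* (0.99 each), and *Rpgr* with *Luc7l3*, *Srsf10* and *Rif1* (0.98, 0.98 and 0.97). *Spata7* had the least similar neighbours, *Sumf1*, *Prdm4* and *Fahd1* (0.87, 0.87 and 0.85). *Cep290* was nearest to *Pcdh15*, *Lrpprc* and *Tmem86b* (0.96, 0.94 and 0.94), and *Lca5* to *Ctbp2*, *Nadk2* and *Cep120* (0.97, 0.95 and 0.95).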

How the data were processed

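Retinal RNA was labeled with the 1-cycle kit and hybridized to 12 arrays. The authors determined signal intensities with the GeneChip Operating Software and deposited these linear intensities for 45101 probe sets, with no scaling across arrays that the sources state. The 64 control probe sets were left out of tests, and symbols came from the platform annotation. Signals were analysed as log2(signal + 16) with limma 3.58.1 in R 4.3.3 (lmFit, eBayes with trend) in 1 model of 4 groups on 21530 probe sets with a group mean of at least 50. A probe set was tested where a compared group reached 50, and p-values were adjusted by Benjamini-Hochberg at 0.05 over all probe sets tested. Genotypes were compared as deposited, and ages after quantile normalization of all arrays. Alternatives were other scalings (median, trimmed mean, spikes), offsets of 1 and 50, other signal limits, replicate blocks, fits of the compared groups alone, eBayes without the trend, a limit on the ratio of means without a test, and leaving out each array. Scripts were tested on simulated data.

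Same-numbered arrays deviated together at P12 (r of 0.82, 0.88 and 0.54) and only weakly at P1 (0.18, 0.14 and 0.25). Arrays of different numbers were not compared in this way. The numbers were taken to pair samples within an age, for which the P1 values give little ground. Across ages the controls did not deviate together (r of −0.019, −0.043 and −0.0079). The *Otx2* CKO arrays did for replicates 1 and 2 (0.61 and 0.60) but not for replicate 3 (−0.024), which the block within each age leaves out of account. The labels do not say what a number stands for. The block within each age was added after the data were seen. As deposited, limma then estimated an infinite prior df, which makes its p-values very small; with quantile normalization the estimate was finite.

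All 18 probe sets are named, with the brightest of each gene leading. Of each list up to 4 genes with the largest P12 change past the threshold, and the 3 probe sets most alike to each leading one, are named. The members and lists were chosen with earlier results of these data known.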

Additional observations from a re-analysis of the deposited data

Results flagged for a closer look

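The genotype change differed between the ages for 5 member probe sets by the interaction term of the limma fit, but 3 of these were under the signal limit of 50 in both P1 groups, where hardly any change could appear, and with an offset of 1 the count was 1. The P12 minus P1 difference was −1.73 (adjusted p = 0.00549) for *Unc119*, −2.89 and −3.04 (adjusted p = 0.00677 and 0.00555) for *Mak*, and −3.58 and −2.16 (adjusted p = 0.00289 and 0.0126) for 2 of the 4 *Rpgrip1* probe sets. The remaining 2 gave −2.10 (adjusted p = 0.095) and −2.53 (adjusted p = 0.0538). No group had enough arrays for a test of single outlying arrays.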

How the results depend on the processing

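Of 866 comparisons of a single value with its alternatives, 781 kept direction and side of the threshold, 31 lost a call, 34 gained one and 20 turned in sign, none of the last among called values. At P12 the 7 member calls held under all 16 alternatives and without any 1 array. The sign turned for *Arl3* at P1, from −0.06 to 0.14 with quantile normalization, over all arrays, within each age or with either block, and to 0.17 with median, trimmed mean and spike scaling (−0.17 to 0.039 with 1 array left out). It turned at P12 for *Rpgr* with quantile normalization with or without a block (−0.0040; −0.28 to 1.11 with 1 array left out) and for *Spata7* (−0.034 with quantile normalization with or without a block, −0.039 within each age, −0.012 with the trimmed mean and −0.020 with spikes).

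The count of members lower at P1, 1 here, was 0 with spike scaling or an offset of 50, 2 with the replicate block over both ages, 2 with either block and quantile normalization, 3 with the block within each age, 3 by a mean log2 ratio limit without a test, and 0 to 1 with an array left out. Members higher at P12, 0 here, were 2 with the block within each age and 2 by that limit. For the difference between the ages, the count lower was 1 with an offset of 1 and 9 with quantile normalization and the block within each age, and the count higher was 3 with that block as deposited. In the control between ages, the count higher, 8 here, was 6 with the compared groups alone and 6 to 10 with an array left out, and 1 member was lower with median scaling or the replicate block, and 0 to 1 with an array left out. In the *Otx2* CKO retina between ages, the count higher was 7 as deposited, 6 with spikes, 0 with median scaling or the compared groups alone, 8 by the limit without a test, and 0 to 1 with an array left out. The cause of these shifts was not tested.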
